A study of Mus musculus with 6 samples.

Results

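The clustered protocadherins are neighbouring cadherin-like adhesion genes that lie in 3 clusters, alpha, beta and gamma, on mouse chromosome 18. Every gene symbol beginning with Pcdha, Pcdhb or Pcdhg was taken, which gave 59 of the 23420 symbols counted in each library. The alpha cluster held 15 symbols, the beta cluster 22 and the gamma cluster 22. Other protocadherins, which do not lie in these clusters, were left out. RNA was measured in mouse E14 embryonic stem cells (ESCs), cultured in LIF with blockers of the kinases MEK and GSK3, and the question was whether losing the insulation factor PATZ1, which carries zinc fingers, came with a change in the use of these genes. WT E14 cells were compared with cells labelled *Patz1* -/- (KO), made with Cas9 and a guide RNA and grown as clones after puromycin selection. No further treatment is named for either genotype. The labels do not say from which clone or clones the KO RNA came, so genotype and clone cannot be told apart. Each genotype had 3 libraries of total RNA depleted of ribosomal RNA, which the study calls biological replicates.

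In the alpha and gamma clusters, each variable exon has its own promoter and is spliced to constant exons shared by the whole cluster, so that choosing a promoter chooses the isoform. The variable exon encodes the extracellular cadherin repeats, the transmembrane segment and part of the cytoplasmic tail, and the constant exons encode the rest of the tail. The beta genes are single-exon genes with no constant exons. Most promoters of these clusters carry CTCF sites, and CTCF and cohesin bring a chosen promoter to a distant enhancer. In neurons the choice differs from cell to cell, and the resulting set of cell surface proteins, which bind the same isoform on a neighbouring cell, serves in self-avoidance of neurites. The C-type members at the 3' ends of the alpha and gamma clusters are used more constitutively in neurons than the others.

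On GRCm38, the build called mm10, the RefSeq gene models placed the alpha cluster at 36930285 to 37188897 of chromosome 18, the beta cluster at 37264998 to 37521419 and the gamma cluster at 37661775 to 37841873. The gamma cluster held 12 A-type, 7 B-type and 3 C-type members. *Pcdhgb8* among the B-type members is a pseudogene. *Pcdha4-g* is a read-through symbol that shares the variable exon of *Pcdha4* and has no exon of its own. Lengths below are those of each gene's own exons, which were 2346 to 3028 bases in the alpha, 2340 to 5271 in the beta and 2499 to 2961 in the gamma cluster.

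The libraries held between 11040756 and 47721070 counts, and replicate 3 of each genotype was the shallow one. The ribosomal precursor *Rn45s* took 14.4% and 12.5% of the counts in WT and KO replicate 3 and between 1.79% and 3.03% in the other 4 libraries. *Lars2* took 5.31% and 4.56% in WT and KO replicate 3 and between 0.0512% and 0.162% in the other 4. Counts were scaled by the size factors of DESeq2 and are called normalized counts. A floor of 3 counts, the most that a true count of 0 is taken to allow, equalled between 1.69 and 8.21 normalized counts, and such floors and the count intervals below cover counting error only. *Patz1*, the targeted gene, on chromosome 11, had 1838, 1983 and 1843 normalized counts in WT and 853, 862 and 862 in KO, with no overlap. Its log2 fold change was -1.14 ± 0.10 (SE, DESeq2 adjusted p = 1.58e-26). All 10 ESC markers were tested, and their summed normalized counts were 168676 to 178203 in WT and 190676 to 198292 in KO. Of these 10, 1 passed the test, against 7.49% of all genes tested. It was *Dppa5a*, with a log2 fold change of 0.38 ± 0.09 (SE, DESeq2 adjusted p = 0.0022), and its call was lost in some of the fits without a single library.

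The 3 clusters differed in how far they were transcribed, in the same order in every library. The gamma cluster carried between 94.7% and 95.3% of all counts of the clustered protocadherins in each library. The beta cluster carried 4.12% to 5.07% and the alpha cluster 0.264% to 0.691%. Per gene and per kilobase of own exon, the gamma level was 18.5 ± 3.05 normalized counts in WT against 16.4 ± 2.26 in KO (SD, n = 3). The beta level on that scale was 0.665 ± 0.026 in WT and 0.609 ± 0.021 in KO, and the alpha level was 0.119 ± 0.065 in WT and 0.123 ± 0.085 in KO. Each cluster was thus several times below the next in both genotypes, and no library of one cluster reached the range of the cluster above it.

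**Figure D1:**
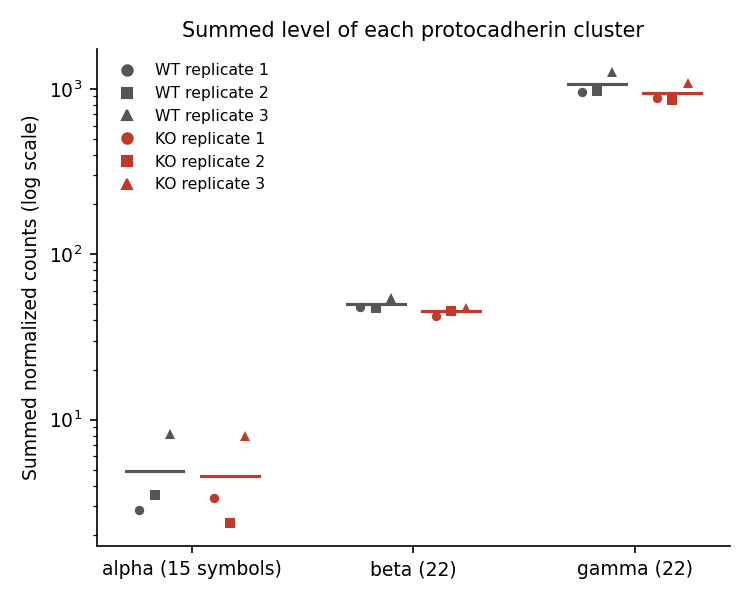
Summed normalized counts of the alpha, beta and gamma clusters, on a log axis, in each WT (grey) and KO (red) library, with the mean of each genotype as a horizontal line. The gamma sums lie between 852 and 1268, the beta sums between 42.3 and 54.8 and the alpha sums between 2.37 and 8.21, and the genotypes overlap in each cluster.

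In the comparison of genotypes, none of the clustered protocadherins passed the DESeq2 test at an adjusted p of 0.05. An adjusted p was given for 25 of the 59 symbols, which were all 22 gamma members, 3 beta members and no alpha member, the rest being too low to enter. The count was therefore 0 of 25, against 7.49% of all 15309 genes tested (2.7% higher and 4.78% lower in KO). At an unadjusted p under 0.05 there were 2 members, *Pcdhga4* and *Pcdhga8*, against 17.2% of all genes tested. The edgeR quasi-likelihood test, in which 48 members entered, also called 0, against 1059 of all 19404 genes in that test. It gave 3 members at an unadjusted p under 0.05, for which no share of all genes was taken, and a lowest adjusted p of 0.136. The depth sets how large a difference could have gone unseen, and the plot of fold changes gives the 95% intervals of the 25 members with an adjusted p. For the other 34 the counts were too few for a useful interval. RNA from whole cultures was measured, so fewer cells using a promoter and less RNA per cell cannot be told apart.

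The alpha cluster was at the limit of detection in both genotypes. Its summed counts were 5, 5 and 3 in WT and 6, 4 and 3 in KO, or 2.86, 3.53 and 8.21 normalized counts in WT and 3.39, 2.37 and 7.93 in KO. The genotypes overlapped, and replicate 3 of each, with 3 counts and the smallest depth, was highest after scaling. The exact 95% Poisson intervals of the counts, as wide as 2.2 to 13.1 for KO replicate 1, cover counting error only. WT and KO thus held 13 counts each over all libraries. Of the 15 symbols, 7 were at 0 in all libraries, and 13, these included, never exceeded 3 counts. *Pcdha4* and *Pcdha4-g* are among the 7, and since they share an exon, reads there may have been left out as ambiguous, so their zeros may come from the counting. A share of 10.1% to 23.4% of the 50-base windows in each variable exon other than the C-type exons also occurs in another gene, and reads there may have been left uncounted. The C-type exons, *Pcdhac1* and *Pcdhac2*, hold no such window. The part of shared sequence in the alpha counts was not tested.

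*Pcdhac2*, a C-type member, was the alpha gene with the most counts. It had 3, 3 and 3 counts in WT and 1, 4 and 1 in KO, and it was the only alpha gene counted in all 6 libraries. The other C-type member, *Pcdhac1*, had 1 count in KO replicate 1 and none elsewhere. *Pcdha12* had 1 count in WT replicate 2 and 4 counts in KO replicate 1, and none in the other 4 libraries. *Pcdha3* and *Pcdha5* had 1 count each, both in KO replicate 3. No alpha gene exceeded 4 counts in any library, and at such counts a fall or a small rise in KO was not detectable.

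The beta cluster was detected as a sum, with few counts for each gene. Its summed counts were 84, 67 and 20 in WT and 75, 77 and 18 in KO. After scaling these were 48.0, 47.3 and 54.8 normalized counts in WT and 42.3, 45.7 and 47.6 in KO. KO was at 90.3% of WT (45.2 ± 2.65 against 50.04 ± 4.11 normalized counts, SD, n = 3). On this scale the genotypes overlapped narrowly, with KO replicate 3 at 47.57 and WT replicate 2 at 47.31 normalized counts. Per gene and per kilobase they did not overlap, at 0.638 to 0.691 normalized counts in WT and 0.594 to 0.633 in KO, nor did the sums scaled only by total counts, at 1.78 to 1.81 CPM in WT and 1.57 to 1.65 CPM in KO. These gaps were narrower than the counting error, since the exact 95% Poisson intervals of the summed counts ran from 51.9 to 85.1 in WT replicate 2 and from 60.8 to 96.2 in KO replicate 2. Total counts include *Rn45s* and *Lars2*, whose larger shares lower the CPM values of replicate 3 in both genotypes. Within same-numbered pairs KO was at 88.1%, 96.5% and 86.9% of WT. *Pcdhb11*, *Pcdhb12*, *Pcdhb13* and *Pcdhb15* had no count in any library. Another 7 beta genes never exceeded 3 counts, which left 11 of the 22 above the floor in at least 1 library.

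*Pcdhb17* and *Pcdhb22* at the 3' side of the cluster and *Pcdhb7* in its first part were the most counted beta genes, and all encode adhesion molecules of the same kind. *Pcdhb17* had 17, 23 and 2 counts in WT and 16, 30 and 5 in KO, with a log2 fold change of 0.25 ± 0.65 (SE, DESeq2 adjusted p = 0.921). *Pcdhb22* had 13, 9 and 4 counts in WT and 12, 7 and 5 in KO, and it was the only beta gene above 3 counts in all 6 libraries. Both genes overlapped between the genotypes.

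*Pcdhb7* had 17, 13 and 2 counts in WT and 7, 5 and 1 in KO, which were 9.72, 9.18 and 5.48 normalized counts in WT and 3.95, 2.97 and 2.64 in KO. All KO libraries lay below all WT libraries, as they did for 13.8% of all genes tested. The log2 fold change was -1.36 ± 0.89 (SE, DESeq2 adjusted p = 0.487), and replicate 3 held 3 of its 45 counts. *Pcdhb5* had 6, 3 and 4 counts in WT and 2, 4 and 1 in KO. *Pcdhb1*, which stands apart at the 5' end of the beta cluster, had 3, 1 and 0 counts in WT and 8, 8 and 0 in KO. The sums were 16 counts in KO and 4 in WT, replicate 3 was too shallow to place either genotype, and the gene was too low for an adjusted p.

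**Figure D2:**
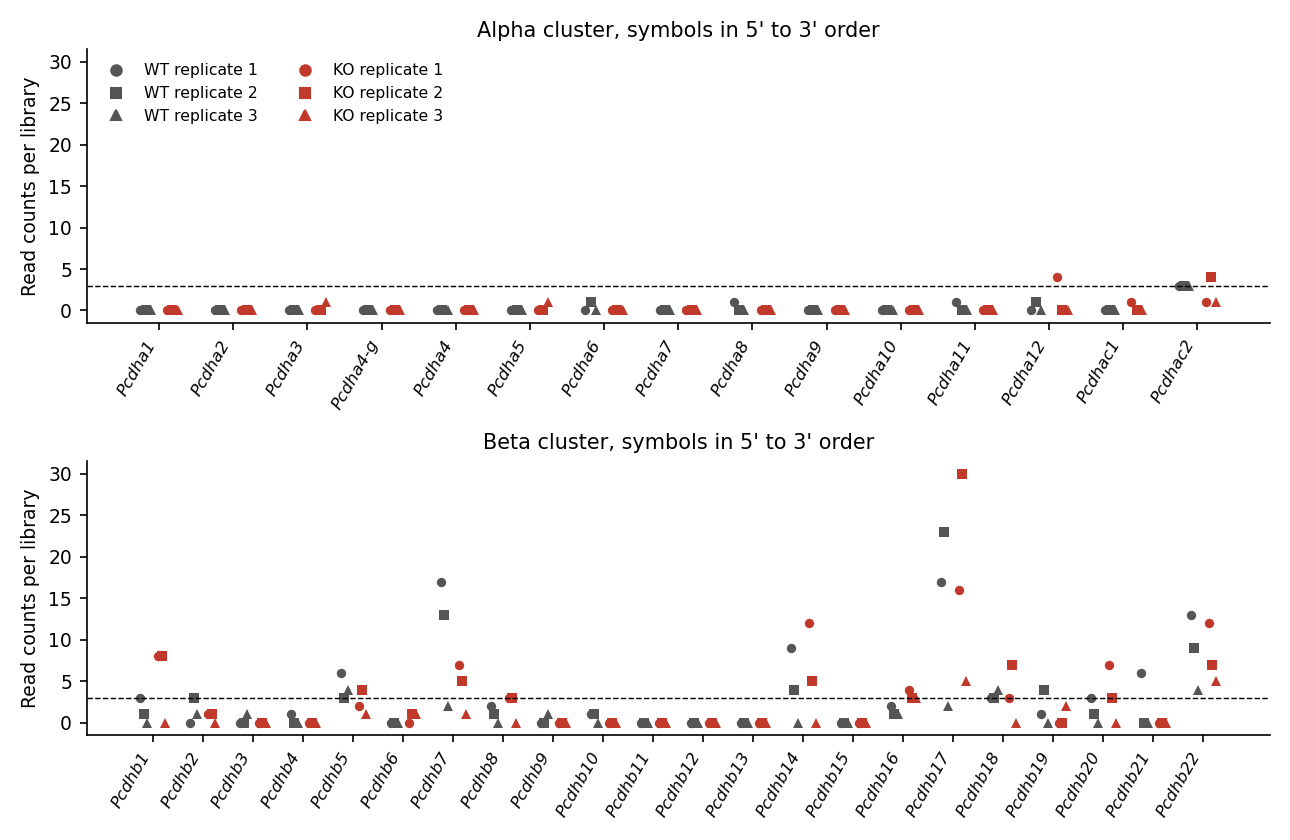
Read counts, not normalized, of each alpha (top) and beta (bottom) symbol in 5' to 3' order in the WT (grey) and KO (red) libraries, with a dashed line at the floor of 3 counts. Alpha counts never exceed 4, and among the beta genes *Pcdhb17*, *Pcdhb7*, *Pcdhb22* and *Pcdhb14* reach 9 counts or more in at least 1 library.

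Every variable exon of the gamma cluster was detected. All 22 members were counted in all 6 libraries, and 21 were above 3 counts in each. The exception was *Pcdhga6*, an A-type member, with 16, 15 and 4 counts in WT and 19, 2 and 1 in KO. The counts of the constant exons had not been added to each member, since the lowest gamma member had 16, 15 and 4 counts in the WT libraries and 10, 2 and 1 in the KO libraries. The highest had 224, 172, 59, 251, 205 and 76 in the same order. The values below therefore describe mainly the variable exons, which is where the members differ. The RNA was not selected for poly(A) tails, so counts over a variable exon can include unspliced transcripts begun further 5' and do not show which promoters were active.

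In both genotypes the same 4 members led the gamma cluster. *Pcdhgc3*, the first C-type exon, had 49.9, 47.3 and 55.4 normalized counts per kilobase in WT and 55.2, 36.7 and 78.2 in KO. *Pcdhga1*, the exon at the 5' end of the cluster, had 38.9, 45.8 and 62.8 in WT and 40.4, 47.2 and 48.3 in KO. These 2 exons, near opposite ends of the variable array, overlapped each other in both genotypes. *Pcdhga12*, the last A-type exon, had 29.6, 25.5 and 39.8 normalized counts per kilobase in WT and 25.9, 29.6 and 32.1 in KO, and *Pcdhga11* had 26.2, 28.7 and 36.3 in WT and 27.8, 34.2 and 32.1 in KO.

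*Pcdhga8* and *Pcdhgb8* came next in WT, with means of 25.4 and 25.4 normalized counts per kilobase, and *Pcdhgb8* and *Pcdhga10* in KO, with 19.4 and 18.9. The lowest member was *Pcdhga6*, at 3.91 ± 0.36 normalized counts per kilobase in WT against 1.86 ± 1.97 in KO (SD, n = 3). The other C-type exons were also among the low ones in both genotypes. *Pcdhgc4* had 4.92, 3.65 and 6.60 normalized counts per kilobase in WT and 1.94, 4.49 and 8.19 in KO, and *Pcdhgc5* had 4.58, 8.62 and 9.40 in WT and 6.89, 5.203 and 6.05 in KO. The order was mostly gradual. Of the 21 pairs of neighbours in rank, 20 overlapped between libraries in WT and 18 in KO. The single gap in WT lay between *Pcdhgb8* and *Pcdhga10*.

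**Figure D3:**
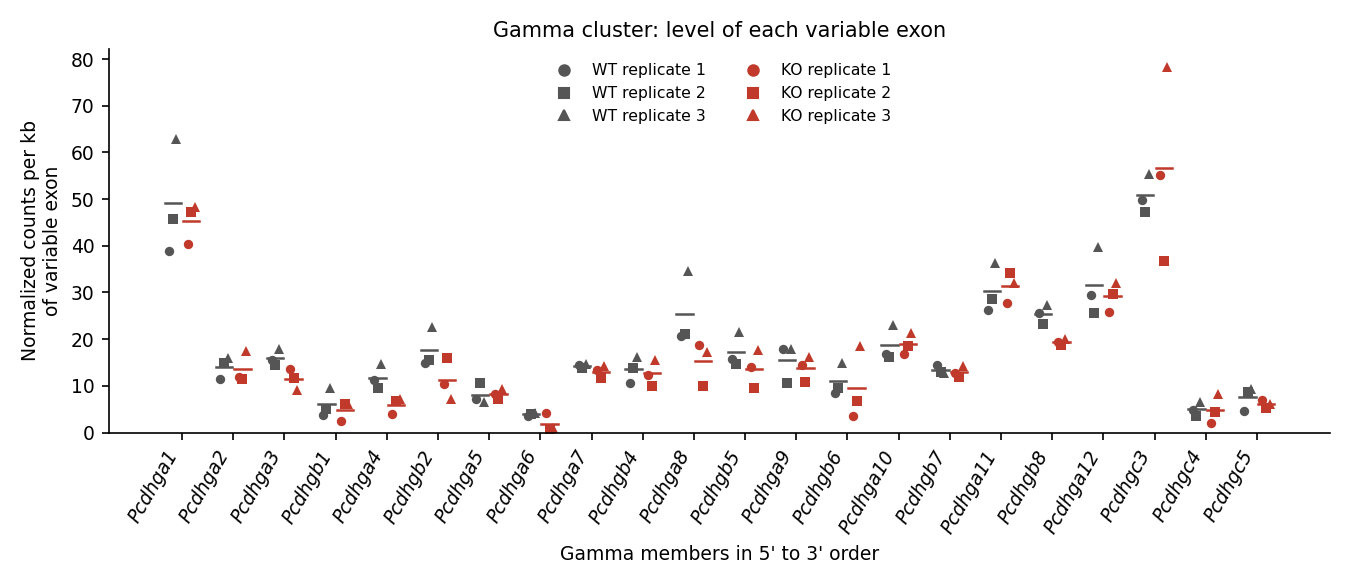
Normalized counts per kilobase of variable exon for the 22 gamma members in 5' to 3' order, with each WT (grey) and KO (red) library as a point and the mean of each genotype as a line. *Pcdhga1*, *Pcdhga11*, *Pcdhga12* and *Pcdhgc3* are highest in both genotypes, and *Pcdhga6* is lowest.

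By exon type, the A-type members averaged 19.9 ± 3.56 normalized counts per kilobase in WT, the B-type members 14.9 ± 2.51 and the C-type members 21.2 ± 2.30 (SD over 3 libraries). In KO these were 17.3 ± 1.24, 12.1 ± 1.88 and 22.5 ± 7.74. The C-type value was carried by *Pcdhgc3*. The B-type exons share more sequence with other genes, with 2.67% to 17.9% of their 50-base windows repeated in another gene, against at most 4.25% for the A-type and none for the C-type exons. Per kilobase of exon repeated in no other gene, the WT levels were 20.1 for the A-type, 16.8 for the B-type and 21.2 for the C-type exons, so the B-type exons kept the lowest mean on this scale. Annotated antisense exons overlap 8 gamma variable exons, among them the whole of that of *Pcdhga10*. All 4 leading exons are among the 8, with an overlap of 406 bases for *Pcdhga1*, 1339 for *Pcdhga11*, 422 for *Pcdhga12* and 1513 for *Pcdhgc3*. The strand setting of the counting is not given in the sources used here, and the part of antisense reads in these values, and in the shares of the leading exons given below, was not tested.

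The gamma cluster as a whole was slightly lower in KO in every same-numbered pair, while the genotypes overlapped when the numbers were set aside. Replicates 1 and 2 are not shown to be true pairs. Its summed normalized counts were 958, 965 and 1268 in WT and 884, 852 and 1091 in KO. The KO mean was 88.6% of the WT mean (942 ± 130 against 1064 ± 177, SD, n = 3), and KO replicate 3 lay above WT replicates 1 and 2. Within same-numbered pairs KO was at 92.2%, 88.4% and 86.1% of WT. Without replicate 3 in either genotype the log2 ratio of the means was -0.15, against -0.17 with all libraries, while it was -0.03 without WT replicate 3 alone and -0.29 without KO replicate 3 alone. Scaled only by total counts, the sums were 36.20, 36.36 and 41.94 CPM in WT and 32.82, 30.75 and 36.16 in KO, so the genotypes were separated on that scale by the gap between 36.16 and 36.20. Those totals include *Rn45s* and *Lars2*, at 12.5% and 4.56% of the counts in KO replicate 3 against 1.79% and 0.162% in WT replicate 1. Whether the gap remains without them was not tested.

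Member by member, 19 of the 22 gamma exons had a log2 fold change below 0 and 3 had one above 0, with a median of -0.16, against a median of 0.01 over all genes tested and 48.4% of them below 0. The fold changes ran from -0.9997 to 0.12 and their SEs from 0.23 to 0.88, and the adjusted p-values lay between 0.228 and 0.986. The members lie in one cluster and their counts come from the same libraries, so these directions are not independent of each other. In each of the 3 same-numbered pairs KO was below WT for 6 members and above WT for none, against 26.1% and 27.2% of all genes tested. The genotypes did not overlap for 4 members, all lower in KO, which is 4 of 22 against 25.6% of all genes tested in either direction and 13.8% lower in KO. These were *Pcdhga3*, *Pcdhga4*, *Pcdhga8* and *Pcdhgb8*.

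*Pcdhga4* had the lowest adjusted p of all members. It had 51, 35 and 14 counts in WT and 18, 30 and 7 in KO, or 29.2, 24.7 and 38.3 normalized counts in WT and 10.2, 17.8 and 18.5 in KO. Every KO library lay below every WT library. The log2 fold change was -0.9997 ± 0.47 (SE, DESeq2 adjusted p = 0.228, unadjusted p = 0.0339), with a 95% interval from -1.92 to -0.08. Over all alternatives its adjusted p lay between 0.136 and 0.749, and without KO replicate 1 the log2 fold change was -0.72.

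*Pcdhga8* followed, with 94, 78 and 33 counts in WT and 87, 44 and 17 in KO. These were 53.8, 55.1 and 90.4 normalized counts in WT and 49.1, 26.1 and 44.9 in KO, without overlap. WT replicate 3 and KO replicate 2 stood furthest from the rest. The log2 fold change was -0.70 ± 0.35 (SE, DESeq2 adjusted p = 0.288), and it was -0.47 without WT replicate 3 and -0.42 without KO replicate 2. *Pcdhgb8*, the pseudogene, had 64.1, 57.9 and 68.5 normalized counts in WT and 48.5, 46.9 and 50.2 in KO, with a log2 fold change of -0.38 ± 0.29 (SE, DESeq2 adjusted p = 0.591).

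The most counted members differed little between the means, and the genotypes overlapped for each of them. *Pcdhgc3* had a log2 fold change of 0.12 ± 0.26, *Pcdhga11* 0.08 ± 0.26, *Pcdhga1* -0.08 ± 0.23 and *Pcdhga12* -0.08 ± 0.25 (SE, DESeq2 adjusted p between 0.904 and 0.937). KO replicate 3 was the highest library for *Pcdhgc3*, at 201 normalized counts against 94.3 and 142 in the other KO libraries, and without it the log2 fold change was -0.13. The 95% interval of *Pcdhga1* ran from -0.54 to 0.38, which is 0.690 to 1.299 times the WT level. Across the gamma members, 12 had a 95% interval that stayed within a log2 fold change of -1 to 1. For 10 the interval reached -1 or below, and for 1, *Pcdhgc4*, it also reached above 1.

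**Figure D4:**
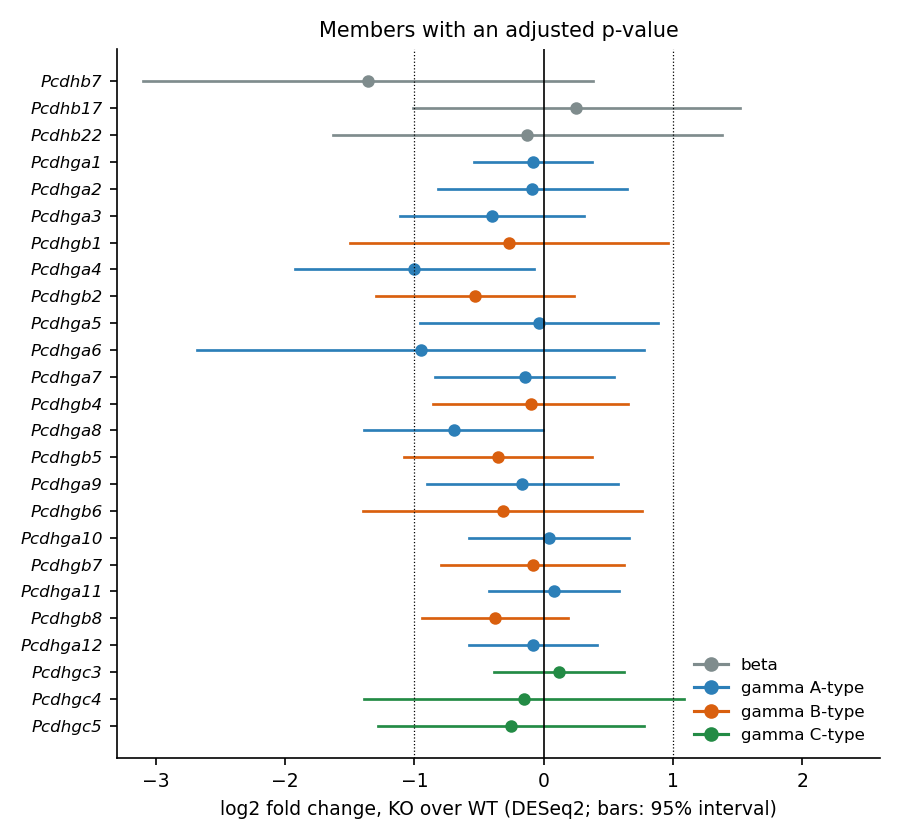
Log2 fold change of KO over WT with its 95% interval (DESeq2) for the 25 members that received an adjusted p, in 5' to 3' order and coloured by cluster and exon type, with dotted lines at -1 and 1. Of the 22 gamma members 19 lie below 0, and the intervals of *Pcdhga4* and *Pcdhga8* are the only ones that do not reach 0.

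The B-type exons were lower in KO for 7 of 7 members, with log2 fold changes from -0.53 to -0.09 and none past the threshold. Their summed normalized counts were 237.9, 242.2 and 317.6 in WT and 191, 201 and 254 in KO. KO was at 80.9% of WT, and at 80.2%, 83.0% and 79.9% within same-numbered pairs. On this scale the genotypes overlapped through KO replicate 3. Scaled only by total counts, they did not overlap, at 8.98, 9.13 and 10.5 CPM in WT and 7.08, 7.26 and 8.41 CPM in KO. This separation also rests on totals that include *Rn45s* and *Lars2*, which took their largest shares in replicate 3. The A-type sum was at 87.2% of WT, and the C-type sum at 106%, with pairs at 107%, 78.2% and 129%.

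The relative use of the variable exons was led by the same exons in both genotypes, and their joint share was larger in KO. The share of each member in the gamma level per kilobase was compared with an even share of 4.55%. The 4 leading exons together took 39.5%, 39.9% and 40.1% of the gamma level per kilobase in WT and 44.1%, 45.5% and 45.7% in KO, without overlap. The summed level of these 4 exons was 145, 147 and 194 normalized counts per kilobase in WT and 149, 148 and 191 in KO, and that of the other 18 was 222, 222 and 290.04 in WT and 189, 177 and 227 in KO, so the mean level was lower in KO for the other members and not for the 4. The effective number of exons in use, the exponential of the Shannon entropy of the shares, was 17.8, 18.1 and 17.9 in WT and 16.5, 16.8 and 16.4 in KO. For both measures the gap between the genotypes exceeded the range within either genotype. No p is given, since both are scores over the members, and the leading exons were chosen in these libraries. The shares of single members depend on each other, so the 25.6% of all genes tested whose levels did not overlap is not a like reference for them. For single members, the shares did not overlap for 3 of 22. These were *Pcdhga4*, with means of 2.88% in WT and 1.65% in KO, *Pcdhga8*, with 6.16% and 4.25%, and *Pcdhga10*, with 4.58% and 5.26%.

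The rank order of the 22 gamma levels had a Spearman's rho of 0.939 between the genotype means. Between single libraries rho was 0.916 to 0.938 within WT, 0.756 to 0.860 within KO and 0.818 to 0.946 between a WT and a KO library, as a description over 22 members that share libraries and exon lengths. Of the 9 pairs of a WT and a KO library, 8 lay below the lowest WT pair, and all lay within or above the range of the KO pairs.

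Genes with roles in the regulation of these promoters were read from lists of known factors. Of 19 factors of promoter insulation and looping, all were tested, 1 was higher in KO and 1, *Patz1* itself, lower, against 2.7% and 4.78% of all genes tested. *Ctcf*, which binds the promoters of the clusters, had 5989, 5746 and 5942 normalized counts in WT and 6216, 5892 and 6078 in KO, with a log2 fold change of 0.04 ± 0.08 (SE, DESeq2 adjusted p = 0.898). *Rad21*, the cleavable subunit of cohesin, had a log2 fold change of 0.03 ± 0.08 (SE, DESeq2 adjusted p = 0.932). *Smc1a*, another cohesin subunit, rose from 5805 ± 568 to 8125 ± 401 normalized counts (SD, n = 3), with a log2 fold change of 0.49 ± 0.10 (SE, DESeq2 adjusted p = 9.6e-05). It lies on the X chromosome, where 32.2% of 525 tested genes had a log2 fold change below 0.

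Of 24 promoter silencing factors, 1 rose, 2 fell and 21 did not pass, which is 12.5% called against 7.49% of all genes tested. *Dnmt3l*, a cofactor of de novo DNA methylation, rose, with 6514, 4388 and 5317 normalized counts in WT and 8471, 6397 and 8557 in KO. The libraries overlapped, and the log2 fold change was 0.53 ± 0.15 (SE, DESeq2 adjusted p = 0.0095 and edgeR adjusted p = 0.0541). *Atf7ip*, a partner of the histone methyltransferase SETDB1, fell by 0.51 ± 0.12 on the log2 scale (SE, DESeq2 adjusted p = 0.00065). *Suz12*, a Polycomb subunit, fell by 0.37 ± 0.09 (SE, DESeq2 adjusted p = 0.0012). *Suz12* lies on chromosome 11, where 86.7% of 1192 tested genes had a log2 fold change below 0 and the median was -0.27. On chromosome 18, which holds the protocadherin clusters, 45.4% of 372 tested genes were below 0, with a median of 0.02. On the Y chromosome all 7 tested genes fell past the threshold (median -4.38 on the log2 scale), a difference between the KO and WT lines that cannot be told apart from genotype in these libraries.

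The silencing factors most closely tied to the protocadherin clusters did not pass the test. *Smchd1*, a chromatin protein that represses clustered protocadherins, had 2723, 2687 and 2467 normalized counts in WT and 2646, 2725 and 2529 in KO (log2 fold change 0.00 ± 0.10, SE, DESeq2 adjusted p = 0.994). *Dnmt3b*, a DNA methyltransferase that methylates their promoters in early development, had a log2 fold change of 0.16 ± 0.14, and *Setdb1*, a histone H3K9 methyltransferase, of -0.12 ± 0.10 (SE, DESeq2 adjusted p = 0.671 and 0.661). *Rest*, a repressor of neuronal genes, had one of -0.03 ± 0.10 and *Wiz*, a zinc finger partner of the G9a methyltransferase, of -0.17 ± 0.28 (SE, DESeq2 adjusted p = 0.941 and 0.862).

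Of 18 genes for the processing of protocadherin proteins and for their cytoplasmic partners, 1 fell and 17 did not pass, against 7.49% of all genes tested called. The gene that fell was *Cyfip2*, a subunit of the WAVE actin regulator, at 332 ± 27.9 normalized counts in WT against 225 ± 12.2 in KO (SD, n = 3, log2 fold change -0.56 ± 0.15, SE, DESeq2 adjusted p = 0.0070). This call was lost in most of the fits without a single library. *Cyfip2* is also on chromosome 11, as is *Patz1*.

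The genes beside the clusters gave 0 of 11 tested at an adjusted p under 0.05, against 7.49% of all genes tested. *Zmat2*, just 5' of the alpha cluster, had a log2 fold change of 0.09 ± 0.10, and *Taf7*, which lies between the beta and gamma clusters, of 0.06 ± 0.09 (SE, DESeq2 adjusted p = 0.781 and 0.860). *Slc25a2*, a mitochondrial carrier gene also between these clusters, had 21.2, 16.9 and 16.4 normalized counts in WT and 13.5, 11.9 and 10.6 in KO. All KO libraries lay below all WT libraries, as they did for 13.8% of all genes tested, with a log2 fold change of -0.59 ± 0.54 (SE, DESeq2 adjusted p = 0.691). *Diaph1*, a formin gene 3' of the gamma cluster, had 1215, 1225 and 1448 in WT and 1063, 989 and 1081 in KO, with a log2 fold change of -0.31 ± 0.11 (SE, DESeq2 adjusted p = 0.0837). With the replicate number as a block its DESeq2 adjusted p was 0.0073.

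Of 12 protocadherins outside the clusters, 4 were tested and none passed, against 7.49% of all genes tested. *Pcdh19*, which acts in neuronal adhesion, had 85.2, 112 and 79.4 normalized counts in WT and 83.0, 110 and 132 in KO. *Pcdh17* had 19.4, 15.5 and 21.9 in WT and 9.03, 7.12 and 13.2 in KO (log2 fold change -1.03 ± 0.57, SE, DESeq2 adjusted p = 0.361). All KO libraries lay below all WT libraries, as they did for 13.8% of all genes tested.

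Markers of other cell types that could carry protocadherin RNA were read beside these values. Of 12 markers of neurons and neural progenitors, 11 were tested and none passed, against 7.49% of all genes tested. Their summed normalized counts were 10235 to 10695 in WT and 10929 to 12220 in KO, most of it from *Tubb3* and *Stmn2*, and none of the 12 was at 0 in all libraries. *Stmn2* had 5840, 5115 and 5490 normalized counts in WT and 6355, 6456 and 6763 in KO, without overlap (log2 fold change 0.25, DESeq2 adjusted p = 0.0798). *Nes*, an intermediate filament gene of neural progenitors, was lower in KO, with 669, 704 and 778 normalized counts in WT and 334, 536 and 618 in KO, without overlap (log2 fold change -0.54, DESeq2 adjusted p = 0.0509). *Sox1*, *Dcx* and *Elavl3* were also below 0, at -0.28, -0.43 and -0.27. The other tested markers were above 0, and the median log2 fold change was 0.09. Of 10 fibroblast markers 4 were tested, and *Thy1*, a surface glycoprotein that ESCs can also express, rose, from 72.5 ± 12.3 to 130 ± 22.7 normalized counts (SD, n = 3, log2 fold change 0.83 ± 0.25, SE, DESeq2 adjusted p = 0.0147). This call was lost in 5 of the 6 fits without a single library, with DESeq2 adjusted p-values up to 0.248. The summed fibroblast markers were at 235 to 262 in WT and 277 to 295 in KO, and the higher KO sum came mainly from *Thy1*. Of the 10 markers 3, *Col3a1*, *Dcn* and *Postn*, were at or under 3 counts in every library. The collagen genes *Col1a1* and *Col1a2* were above the floor only in the deeper libraries and not in replicate 3 of either genotype. Their counts were 19, 22 and 3 in WT and 23, 20 and 1 in KO for *Col1a1*, and 25, 18 and 2 in WT and 11, 9 and 3 in KO for *Col1a2*. The other tested fibroblast markers, *Col1a1*, *Col1a2* and *Pdgfrb*, had log2 fold changes of -0.23, -0.90 and -0.16, none past the threshold, and the median of the 4 was -0.20. Of 8 primitive endoderm markers 6 were tested, with sums of 133 to 189 in WT and 172 to 219 in KO. *Dab2*, an endocytic adaptor, rose from 32.6 ± 9.79 to 78.7 ± 18.9 normalized counts (SD, n = 3, log2 fold change 1.33 ± 0.33, SE, DESeq2 adjusted p = 0.0019). The higher KO sum came mainly from *Dab2*, whose call was lost in some of the fits without a single library. The other 5 tested had log2 fold changes between -0.83 and -0.01, none past the threshold, and the median of the 6 was -0.15. *Foxa2*, an endoderm transcription factor, had no count in any WT library and 22, 7 and 2 counts in KO, and it received no adjusted p (DESeq2 unadjusted p = 0.00086). The part of these cell types in the protocadherin levels was not tested.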

How the data were processed

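Libraries were depleted of ribosomal RNA. The authors deposited raw read counts per gene symbol, 1 file per library; per the labels, the reads were handled with TopHat2 2.1.1, Bowtie2 2.3.1.0 and featureCounts 1.6.2 on mm10. Strand setting, annotation and the treatment of shared and duplicate reads are not given in the sources used here. Here the DESeq2 1.42.0 Wald test (R 4.3.3; two-sided, median-of-ratios size factors, independent filtering, Benjamini-Hochberg over all genes, threshold 0.05) compared 3 KO with 3 WT libraries. Alternatives were edgeR 4.0.16, TMM scaling, a filter of 10 counts in 3 libraries, no independent filtering, a replicate block and fits without single libraries. Same-numbered libraries deviated together from their genotype means (r = 0.469, 0.619 and 0.684 over 11524 genes). Replicate 3 of both genotypes stood apart, which alone gives a positive r for replicates 1 and 2, so r does not show that these were pairs. Chi-square values per degree of freedom were 52.2, 27.7 and 8.80 within the same-numbered pairs. Between replicates 1 and 2 they were 43.5 in WT and 18.9 in KO. Comparisons by replicate number are therefore descriptions.

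The members and lists were chosen with earlier results of these data known. Named were members past the threshold, the 4 highest of each cluster, the C-type members and *Pcdhb1*, the 2 of each sign nearest the threshold, 12 fixed genes and up to 4 called genes of each list. *Pcdhga3*, *Pcdhga6*, *Pcdhga10*, *Pcdhgb8*, *Pcdhb14*, the beta genes at 0, *Pcdh17*, *Pcdh19*, *Foxa2*, *Col1a1*, *Col1a2*, *Pdgfrb*, *Col3a1*, *Dcn*, *Postn*, *Tubb3*, *Nes*, *Stmn2*, *Sox1*, *Dcx* and *Elavl3* were named after their values were seen. *Diaph1* appears in the files under an older symbol. Exon lengths came from RefSeq and GENCODE models of GRCm38. The fits were tested on simulated data with large changes in well counted genes, which does not cover small changes or members of few counts.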

Additional observations from a re-analysis of the deposited data

How the results depend on the processing

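The count of protocadherins called was 0 under every alternative run, with lowest adjusted p-values between 0.136 and 0.445. With the replicate block 0 of 22 members were called (1 at an unadjusted p under 0.05, lowest adjusted p 0.193, for *Pcdhga8*), while the calls over all genes went from 1146 of 15309 tested to 2131 of 14567. Among the genes that the naming rule gave and that were refitted, the block changed the call of *Diaph1* only (log2 fold change -0.30). Among the sums, leaving out the member with the highest level moved the alpha log2 ratio to 1.67, which rests on few counts, and the beta ratio to -0.31. A scale per kilobase of exon repeated in no other gene, chosen after seeing the data, kept the gamma ratio at -0.18, and leaving out 1 library gave gamma ratios from -0.29 to -0.032, beta ratios from -0.19 to -0.080 and alpha ratios, which turned in direction, from -0.75 to 0.51. The alpha ratio was also above 0 per kilobase, at 0.047 over all own exon and 0.13 over exon repeated in no other gene. Leaving out single libraries turned the direction of some low or near-zero log2 fold changes, which then ranged from -0.78 to 1.95 for *Pcdha12*, -0.055 to 0.71 for *Pcdhb17*, -0.51 to 0.24 for *Pcdhb22*, -0.13 to 0.37 for *Pcdhgc3*, -0.24 to 0.082 for *Pcdhga1*, -0.22 to 0.059 for *Pcdhga12*, -0.022 to 0.19 for *Pcdhga11*, -0.59 to 0.30 for *Pcdhgc4*, -0.039 to 0.032 for *Smchd1*, -0.080 to 0.011 for *Rest* and -0.51 to 0.097 for *Wiz*. With no replicate 3 in either genotype, *Pcdhgc3* was at -0.080, *Pcdhga1* at 0.050, *Pcdhga12* at 0.011 and *Smchd1* at -0.010. In the 6 fits without a single library, *Dppa5a*, *Thy1*, *Dab2*, *Dnmt3l* and *Cyfip2* kept their direction and lost the call in 2, 5, 2, 3 and 4 fits. The cause was not tested. The totals of replicate 3, 11040756 and 11420268 counts, were the lowest, which limits members of few counts most.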
